A study of Mus musculus with 8 samples.

Results

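Collagens are the most abundant proteins of the extracellular matrix, and the genes described here are those whose symbol is Col, a number, a and a number, which name the alpha chains of the collagens. The rule found 44 such genes among the 33696 genes counted in single nuclei of the mouse optic nerve (ON). Their levels were followed across cell types, across fibroblasts with and without *Adamtsl3*, which encodes a secreted matrix protein, and across genotypes. Control libraries came from Piezo2f/f mice (4 libraries, replicates 1 to 4), and another 4, with replicate numbers 10 to 13, carried the label Olig2-cre;Piezo2f/f, shortened to cKO. All mice were females at P120 on the C57BL/6J background and carried floxed *Piezo2*, which encodes a mechanically gated ion channel. Each library pooled 6 ONs of 3 mice. The cre sits in the *Olig2* gene, so the cKO mice also had a single intact copy of *Olig2*, the control mice had no cre, and recombination was directed to the oligodendrocyte (OL) lineage.

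A collagen molecule is a triple helix of alpha chains, made in the endoplasmic reticulum and processed and cross-linked outside the cell. Fibrillar collagens build the fibres of connective tissue, collagen IV forms the sheet of basement membranes, collagen VI forms beaded filaments, collagen VIII forms networks, and the fibril-associated collagens sit on the surface of fibres. Multiplexins are basement membrane collagens that can release signalling fragments, and transmembrane collagens stay in the cell surface until they are shed. In the ON, collagen-rich tissue forms the meninges around the nerve and the walls of its vessels, and astrocytes border both on a basement membrane.

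Among the 44 genes are 11 fibrillar chains, 9 fibril-associated chains, 6 chains of collagen IV, 6 of collagen VI, 4 transmembrane chains, 3 network chains, 2 multiplexins, 1 anchoring fibril chain (*Col7a1*) and 2 others. Several lie beside each other in the genome. On GRCm39, *Col4a5* (chrX:140258354-140472231, + strand) and *Col4a6* (chrX:139948399-140257072, − strand) start head to head with 1281 bases between them. *Col1a1* (chr11:94827050-94843868, + strand) and *Col1a2* (chr6:4504814-4541555, + strand), the chains of collagen I, lie on separate chromosomes. The 250 bases before each of these 4 starts are shown 5′ to 3′ on the strand of the gene, because the first pair shared both a locus and nearly the same profile over cell types, and the second pair are partners in 1 molecule without a shared locus. They were read from the GRCm39 genome with the starts of its GENCODE vM39 annotation, at chrX:140258104-140258353 (+), chrX:140257073-140257322 (−), chr11:94826800-94827049 (+) and chr6:4504564-4504813 (+). Capitals mark CCAAT or GGGCGG on either strand.
Col4a5: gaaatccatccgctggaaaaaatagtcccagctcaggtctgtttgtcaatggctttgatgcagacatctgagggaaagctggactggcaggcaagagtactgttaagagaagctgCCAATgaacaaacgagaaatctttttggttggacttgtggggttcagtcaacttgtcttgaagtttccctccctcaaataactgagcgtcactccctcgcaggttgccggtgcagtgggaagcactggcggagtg
Col4a6: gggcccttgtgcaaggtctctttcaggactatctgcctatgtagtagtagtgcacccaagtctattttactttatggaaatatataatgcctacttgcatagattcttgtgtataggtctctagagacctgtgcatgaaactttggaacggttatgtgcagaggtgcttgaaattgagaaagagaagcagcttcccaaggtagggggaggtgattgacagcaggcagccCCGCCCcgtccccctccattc
Col1a1: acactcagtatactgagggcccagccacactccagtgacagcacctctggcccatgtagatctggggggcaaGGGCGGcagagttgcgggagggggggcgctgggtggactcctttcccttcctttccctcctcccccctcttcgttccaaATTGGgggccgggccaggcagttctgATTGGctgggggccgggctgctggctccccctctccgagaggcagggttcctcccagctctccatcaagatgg
Col1a2: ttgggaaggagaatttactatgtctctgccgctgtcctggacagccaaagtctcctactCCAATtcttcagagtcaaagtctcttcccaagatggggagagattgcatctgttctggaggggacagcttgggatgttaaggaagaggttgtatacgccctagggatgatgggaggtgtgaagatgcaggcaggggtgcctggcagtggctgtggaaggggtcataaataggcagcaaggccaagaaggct
The *Col4a5* window holds a CCAAT 135 bases before the start, and the *Col4a6* window a GGGCGG on the other strand, read as CCGCCC, 21 bases before the start. The *Col1a1* window holds 2 CCAAT on the other strand, read as ATTGG, and 1 GGGCGG, and the *Col1a2* window holds 1 CCAAT. In windows of the same length at 21757 protein-coding genes, CCAAT was found in 36.11%, TATAAA in 12.49% and GGGCGG in 29.94%, on either strand. Each motif was counted on its own, so a window can hold several. Of the 44 collagen genes, 16 held CCAAT, 7 held TATAAA and 18 held GGGCGG. These matches describe letters only and are not binding sites.

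The deposited values are unique molecular identifiers (UMIs) per gene and barcode, counted by the authors and not normalized. A library held 39628926 to 56541132 UMIs, of which 33.8% to 47.9% lay in called nuclei. After filters 37239 nuclei remained, 3488 to 6205 per library, and 34961 of them fell into clusters that carried the markers of 1 of 11 cell types. No collagen gene was used to build or name the clusters. *Piezo2*, the targeted gene, was measured in OLs first, in UMIs of the gene per 1000000 UMIs of the sum (CPM). Control libraries 1 to 4 gave 504, 394, 403 and 488, and replicates 10 to 13 gave 535, 536, 571 and 519.9. It was not lower in the second group (log2 difference 0.25 ± 0.11 (SE), adjusted p = 0.524, edgeR quasi-likelihood test with Benjamini-Hochberg adjustment), and a count over the whole gene does not tell floxed from recombined transcripts. The second group is therefore called the libraries labelled cKO. In the genotype comparisons within a group of nuclei, p-values measure the spread between libraries, each of which is a pool. In fits with the library as a block, they measure the spread that remains once each library's own level is taken out. In the split of OLs by *Piezo2*, fitted without a block, sums of the same library were treated as independent.

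Collagen transcripts had their highest median level in fibroblasts. Summed over the 44 genes, the level in the 3715 fibroblast nuclei was 3564 CPM in the lowest library, 4012 in the median and 4376 in the highest. Fibroblasts made up 10.6% of the named nuclei and held 44.5% of their collagen UMIs. In astrocytes the corresponding levels were 1450, 1524 and 1638 CPM, and this type held 29.9% of collagen UMIs with 23.3% of the nuclei. Mature OLs, with 55.4% of the nuclei, held 15.9% of collagen UMIs, at 335, 369 and 416 CPM. The ranges of fibroblasts, astrocytes and OLs did not overlap.

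Between these lay, by their medians, mural cells (2373 CPM in 4 libraries, with a range of 2079 to 7410 CPM that spanned that of fibroblasts), endothelial cells (1208), committed OL precursors (COPs, 1094), OL precursor cells (OPCs, 989), neurons (836), border-associated macrophages (BAMs, 673), microglia (647) and T cells (387). The ranges of endothelial cells, COPs and OPCs overlapped, as did those of neurons, BAMs and microglia. The markers of each type were those used to name its clusters, so their levels are no independent check of the names. None of these markers was at 0 in its own type. All of them were highest in their own type except 1 of 5 in OPCs and 1 of 10 in fibroblasts.

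**Figure D1:**
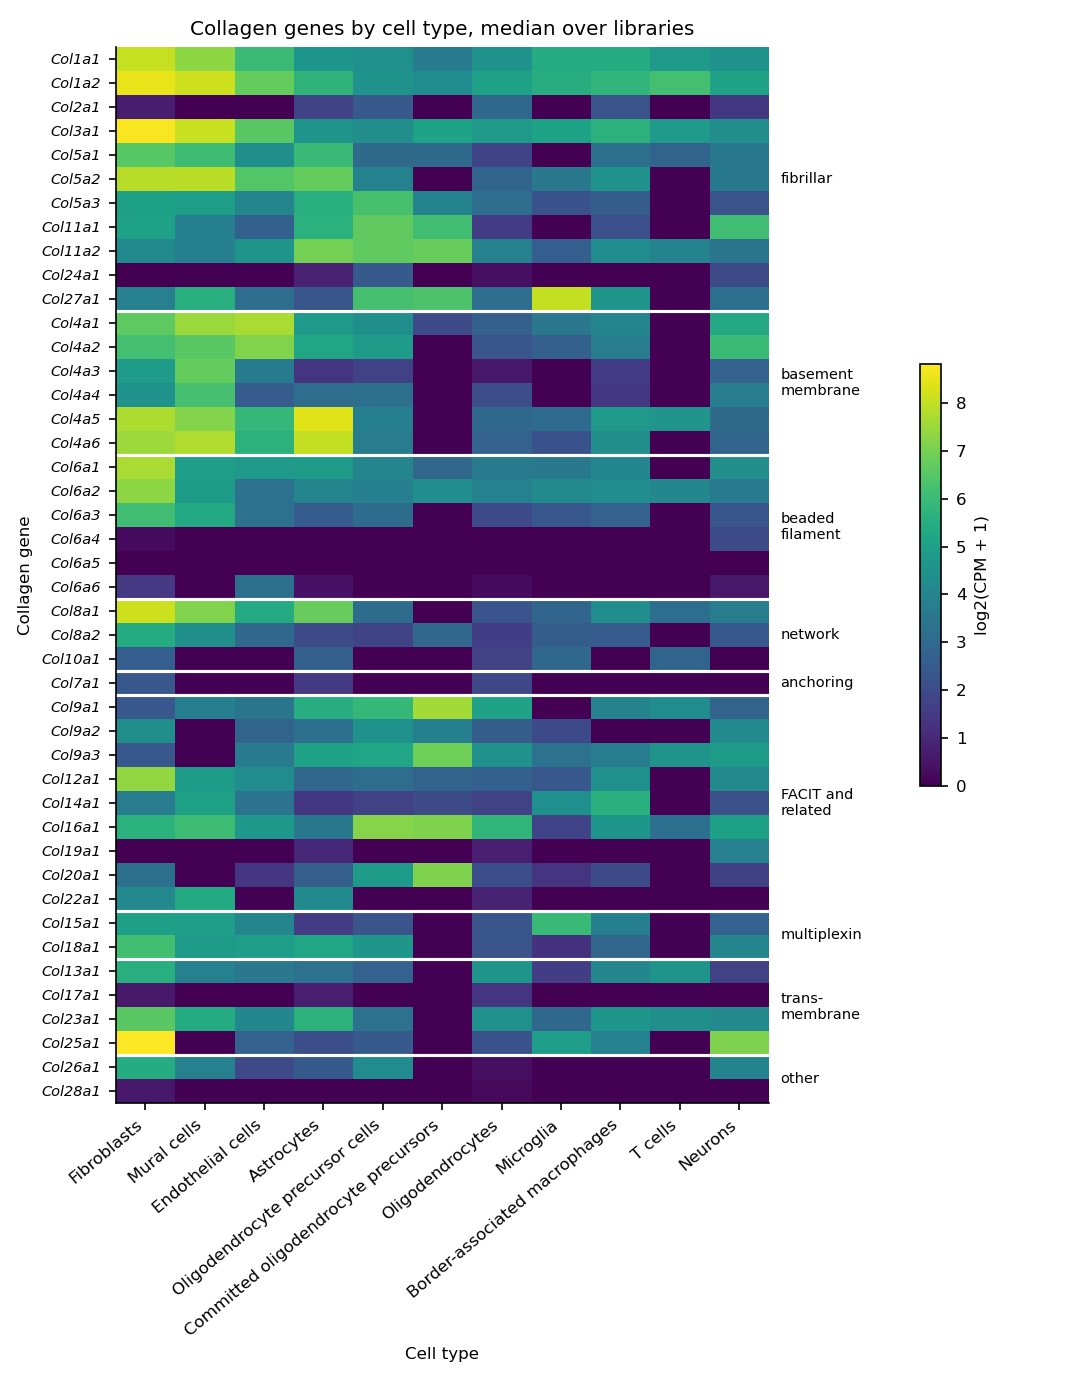
Level of each of the 44 collagen genes (rows, grouped by class) in 11 cell types (columns), as log2(CPM + 1) of the median over libraries. Brighter cells mark higher levels: *Col1a1*, *Col3a1*, *Col6a1* and *Col25a1* are brightest in the fibroblast column, *Col4a5* and *Col4a6* are bright in astrocytes, fibroblasts and mural cells, and *Col20a1* is brightest in COPs.

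Each type was compared with the mean of the other 10 in a single fit over 12124 genes. Of the 44 collagen genes, 31 passed the filter on low counts. The 13 that did not (*Col2a1*, *Col4a4*, *Col6a4*, *Col6a5*, *Col6a6*, *Col7a1*, *Col9a2*, *Col10a1*, *Col17a1*, *Col19a1*, *Col22a1*, *Col24a1* and *Col28a1*) had between 11 and 975 UMIs in all named nuclei, and none was without a UMI. Among the 8 types measured in every library, fibroblasts had the highest median level for 17 of the 31 genes, OPCs for 6, astrocytes for 3, endothelial cells and microglia for 2 each, and BAMs for 1.

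In fibroblasts 27 of the 31 genes were called higher and 4 lower, where 26% of all genes tested were called higher and 10.9% lower (adjusted p under 0.05 and absolute log2 difference over 0.5). Their median log2 difference was 2.83, beside 0.17 over all genes. The calls covered most classes: 7 of 9 tested fibrillar chains, 5 of 5 collagen IV chains, 3 of 3 collagen VI chains, 2 of 2 network chains, 2 of 2 multiplexins, 3 of 3 transmembrane chains and 4 of 6 fibril-associated chains were higher. The 4 lower genes were *Col9a1*, *Col9a3*, *Col11a2* and *Col27a1*. A gene can pass the filter on low counts through the type where it is high, and then count as higher in that type. With DESeq2, which tested all 44 collagen genes, 28 were higher and 7 lower in fibroblasts (14.8% and 19.3% of all genes).

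*Col25a1*, a transmembrane collagen, had the largest difference. It was at 348, 450 and 761 CPM in the lowest, median and highest library of fibroblasts, against 1.81, 3.32 and 7.94 in astrocytes and 1.15, 3.65 and 6.32 in OLs (log2 6.27 ± 0.23, adjusted p = 1.66e-39, edgeR). Only neurons came near it, at 33.7, 136 and 346 CPM, just below the lowest fibroblast library. The study takes its neurons as likely contamination from nearby brain tissue. *Col26a1* was at 28.3, 43.3 and 74.4 CPM (log2 4.68 ± 0.27). *Col12a1*, a fibril-associated collagen, was at 130.5, 166 and 211 CPM (log2 4.11 ± 0.11). Each of these levels was above the range of the same gene in astrocytes and OLs.

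*Col8a1*, a network collagen of vessel walls and of the basement membrane of the cornea, was at 194, 281 and 403 CPM in fibroblasts (log2 4.09 ± 0.12) and at 90.2, 108 and 136 CPM in astrocytes. *Col6a1*, a chain of collagen VI, was at 142, 204 and 240.2 CPM (log2 3.80 ± 0.11). The chains of the main fibre collagens were also high: *Col1a1* at 215, 266 and 420 CPM, *Col1a2* at 323, 364 and 399, and *Col3a1* at 340, 421 and 601. A UMI of *Col1a1* was found in 44.9% of fibroblast nuclei and in 5.58% of OL nuclei. Empty droplets held this transcript at 121 to 165 CPM, while OLs held it at 13.4 to 28.9 CPM.

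In astrocytes 14 of the 31 genes were called higher and 7 lower (28% and 11.6% of all genes), with a median of 0.24 beside 0.13 over all genes, so the count higher was read against a background of the same order. The named leaders were specific chains. *Col4a6* was at 208, 257 and 306 CPM (log2 3.83 ± 0.13, adjusted p = 1.55e-45) and *Col4a5* at 302, 331 and 379 CPM (log2 3.82 ± 0.11, adjusted p = 7.28e-49, both edgeR). These are the chains that form a collagen IV molecule of specialised basement membranes. Astrocyte and fibroblast ranges overlapped for *Col4a6* (158 to 278 CPM in fibroblasts), and for *Col4a5* the astrocyte libraries were all above the fibroblast range of 196 to 283 CPM.

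The other leading astrocyte genes were *Col8a1* (log2 2.62 ± 0.14), the fibrillar chain *Col5a1* (48.4, 62.6 and 72.4 CPM, log2 2.48 ± 0.13) and the fibrillar chain *Col11a2* (103, 125 and 137 CPM, log2 2.40 ± 0.10). The chains *Col1a1* and *Col3a1* were lower in astrocytes, by −1.03 ± 0.19 and −1.09 ± 0.16 on the log2 scale. The calls of astrocytes thus fell on both sides within the fibrillar class, with 5 chains higher and 3 lower.

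In endothelial cells 11 genes were called higher and 0 lower (20.2% and 4.63% of all genes), and all 5 tested chains of collagen IV were among them. *Col4a1*, a chain of the collagen IV found in nearly all basement membranes, was at 118, 206 and 358 CPM (log2 3.46 ± 0.16). Its partner *Col4a2* was at 77.7, 142 and 231 CPM (log2 3.43 ± 0.22). *Col4a3* was at 0, 11.6 and 46.2 CPM (log2 2.19 ± 0.52), *Col5a2* at 59.9, 86.9 and 129 CPM (log2 1.86 ± 0.23) and *Col18a1*, the source of endostatin, at 11.5, 29.2 and 59.4 CPM (log2 1.53 ± 0.34). The fibroblast medians of *Col4a3*, *Col5a2* and *Col18a1* were higher, at 27.7, 236 and 69.1 CPM. With 444 endothelial nuclei in all, the spread between libraries was wide. In the control libraries alone the calls of *Col4a3* (log2 1.32, adjusted p = 0.363, edgeR) and *Col18a1* (log2 1.10, adjusted p = 0.0779) were lost. With DESeq2, which tested all 44 collagen genes, 12 were higher and 2 lower (10.8% and 3.93% of all genes).

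Mural cells, the pericytes and smooth muscle of vessels, were measured in 4 libraries (control 2, control 3, cKO 10 and cKO 13) with 91 nuclei. There 13 genes were called higher and 0 lower (3.54% and 4.31% of all genes). *Col1a1* was at 189, 1399, 40.4 and 132 CPM in these libraries and *Col1a2* at 378, 1622, 162 and 184 CPM, so that control 3 stood far above the other 3. The call for *Col1a1* (log2 2.99 ± 0.45) was lost without control 3 (log2 1.32, adjusted p = 0.355, edgeR, the highest of the settings tried), and 8 genes were then called higher (2.91% of all genes). *Col4a3* was at 81.0, 31.8, 162 and 132 CPM (log2 4.92 ± 0.75), *Col5a2* at 270.1, 668, 202 and 105 CPM (log2 3.17 ± 0.45) and *Col14a1* at 0, 63.6, 0 and 184 CPM (log2 2.80 ± 0.80). The call of *Col14a1* was lost without control 3, with a difference as large (log2 3.00, adjusted p = 0.0584, edgeR), without cKO 13 (log2 1.25, adjusted p = 0.716) and in the control libraries alone (log2 1.93, adjusted p = 0.650), where that of *Col4a3* was lost too (log2 4.11, adjusted p = 0.0729).

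The stages of the OL lineage were each set against the mean of the other 10 types, and no test compared them with each other. In OPCs 11 genes were called higher and 6 lower (22.7% and 7.36% of all genes). *Col5a3* was at 56.0, 75.9 and 84.0 CPM (log2 2.99 ± 0.18), *Col11a1* at 60.7, 101 and 123 CPM (log2 2.87 ± 0.23) and *Col16a1*, a fibril-associated collagen, at 106, 148 and 194 CPM (log2 2.54 ± 0.13). *Col26a1* (11.2, 18.8 and 41.1 CPM, log2 3.62 ± 0.46) and *Col20a1* (15.1, 26.7 and 39.2 CPM, log2 2.85 ± 0.29) were the other leading genes. With DESeq2, of 44 genes tested 13 were higher and 12 lower (14.2% and 8.13% of all genes). The count of 6 lower was 3 without cKO 13 (5.95% of all genes) and 1 in the control libraries alone (3.23% of all genes).

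In COPs 7 genes were called higher and 7 lower (11.7% and 9.79% of all genes). *Col20a1*, a fibril-associated collagen, was at 108, 137 and 198 CPM over 6 libraries, above every OPC library (log2 5.25 ± 0.30, adjusted p = 4.02e-27, edgeR). *Col9a1*, a chain of the fibril-associated collagen IX, was at 132, 194 and 247 CPM (log2 3.73 ± 0.26), again above the highest OPC library of 71.7 CPM. *Col9a3* (89.6, 117 and 210 CPM, log2 3.09 ± 0.25), *Col16a1* (92.8, 136 and 197 CPM, log2 2.35 ± 0.26) and *Col11a2* (74.1, 108 and 179 CPM, log2 2.21 ± 0.28) were the next. The COP cluster held 124 nuclei. Its count of 7 lower fell to 3 or 4 without control 1 or any of the cKO libraries (6.89% to 8.3% of all genes), to 2 with an ambient profile subtracted (7.92% of all genes) and to 1 in the control libraries alone (1.84%).

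In OLs 3 genes were called higher and 17 lower (26.5% and 15.2% of all genes), with a median of −1.08 beside 0.17 over all genes. The lower genes included 8 fibrillar and 3 collagen IV chains. The higher genes were *Col13a1*, a transmembrane collagen known from neuromuscular synapses (14.5, 22.8 and 30.3 CPM, log2 1.38 ± 0.19), *Col9a1* (26.6, 32.6 and 39.3 CPM, log2 1.26 ± 0.14) and *Col16a1* (45.5, 55.2 and 70.0 CPM, log2 1.11 ± 0.11). *Col13a1* was nonetheless higher in fibroblasts, at 34.5, 44.8 and 57.4 CPM. With DESeq2, which tested all 44 collagen genes in place of 31 and used other size factors and another filter, the median of all genes in the OL comparison was −0.65 in place of 0.17. Then 4 collagen genes were called higher and 33 lower, where 10.5% of all genes were higher and 34.6% lower.

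Immune cells and neurons held few collagen genes at high levels. *Col27a1*, a fibrillar collagen of cartilage, was the leading gene of microglia at 171, 257 and 312 CPM, above the range of every other type (log2 3.71 ± 0.16, adjusted p = 2.42e-36, edgeR). *Col15a1* (37.0, 61.5 and 85.0 CPM, log2 3.26 ± 0.31) and *Col14a1* (3.71, 20.6 and 29.4 CPM, log2 1.24 ± 0.38) were also called higher there, 17 genes were lower, and the background was 20.9% and 20.7%. In the control libraries alone the call of *Col14a1* was lost (log2 1.06, adjusted p = 0.219, edgeR) and 9 genes were lower (15.3% of all genes). In BAMs 1 gene, *Col14a1* at 12.7, 47.6 and 109 CPM, was higher (log2 2.86 ± 0.28) and 2 were lower (18.5% and 6.65% of all genes). With DESeq2, of 44 genes tested 1 was higher and 6 lower (9.57% and 7.26% of all genes), and in the control libraries alone 0 were lower (3.34% of all genes).

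The 396 neuronal nuclei, which the study takes as likely contamination from nearby brain tissue, included 124 of control 3. They made up 2.93% of that library and 0.41% to 0.99% of the others. In neurons 6 genes were called higher and 10 lower (27.1% and 14.7% of all genes). *Col25a1* led (log2 4.52 ± 0.39), followed by *Col26a1* (5.10, 14.8 and 30.6 CPM, log2 2.75 ± 0.59), *Col11a1* (32.0, 68.4 and 167 CPM, log2 2.64 ± 0.25), *Col4a2* (38.2, 63.3 and 116 CPM, log2 2.40 ± 0.24) and *Col4a1* (21.4, 39.1 and 64.7 CPM, log2 0.94 ± 0.23). Without control 3 the count lower was 5 in place of 10 (11.2% of all genes in place of 14.7%). In T cells no gene was called higher and 2, *Col4a1* and *Col4a2*, were lower (6.12% and 6.13% of all genes, 128 nuclei). That count was 1 without any single one of 7 libraries (control 1 to 4 and cKO 10 to 12; 3.58% to 5.11% of all genes), 1 with DESeq2 (1.45% of all genes) and 0 in the control libraries alone (3.09%).

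Of the 44 genes, 8 pairs were next to each other in the genome, and 4 of these pairs had both genes tested. Pearson's r was taken over the 11 cell types, which share libraries, on log2(mean CPM + 1) with the mean over libraries. It was 0.98 for *Col4a5* and *Col4a6*, 0.92 for *Col4a1* and *Col4a2*, 0.83 for *Col6a1* and *Col6a2*, and 0.79 for *Col3a1* and *Col5a2*. The annotated starts of *Col4a1* and *Col4a2* overlap head to head on chromosome 8 (chr8:11248423-11362826, − strand, and chr8:11362471-11499287, + strand). Over the 461 other pairs of the 31 tested genes the median r was 0.45 (quartiles 0.0021 and 0.68). The other 4 neighbouring pairs, *Col9a1* and *Col19a1*, *Col4a3* and *Col4a4*, *Col6a5* and *Col6a6*, and *Col6a4* and *Col6a5*, included a gene that did not pass the filter. The 5 genes most like *Col4a1* among the 12124 tested were *Tinagl1* (r = 0.95), *Ripor1* (0.95), *Mapk12* (0.94), *Mxra7* (0.93) and *Hes1* (0.93). These values describe 11 points.

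The genes that make, process, bind and degrade collagen were taken from a list of 52, of which 41 were tested. In fibroblasts 27 were called higher and 3 lower (26% and 10.9% of all genes), with a median log2 difference of 0.78 beside 0.17 over all genes. They included *Serpinh1*, the collagen chaperone (2.35 ± 0.12), *Pcolce*, an enhancer of procollagen cleavage (2.78 ± 0.10), the protease *Tll1* (5.12 ± 0.19), the cross-linking enzyme *Loxl1* (3.55 ± 0.17), the collagen receptor *Ddr2* (3.90 ± 0.12) and the uptake receptor *Mrc2* (4.05 ± 0.10). In astrocytes 18 were higher and 7 lower (28% and 11.6% of all genes, median 0.24 beside 0.13), led by the prolyl 4-hydroxylase subunits *P4ha3* (6.48 ± 0.17) and *P4ha2* (3.65 ± 0.12), the collagen IV receptor *Adgrg6* (3.46 ± 0.11) and *Pxdn*, which cross-links collagen IV (3.10 ± 0.09). In OLs 6 were higher and 18 lower (26.5% and 15.2% of all genes, median −0.65 beside 0.17).

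Fibroblasts were then split by *Adamtsl3*. A nucleus with at least 1 *Adamtsl3* UMI was counted as positive, which gave 1186 nuclei with and 2529 without it (26.7% to 38.4% positive per library). Median depth was 3098 to 4834 UMIs per nucleus with and 2497 to 3886 without, so nuclei without a UMI include some that express the gene. An *Adamtsl3* UMI was found in 31.9% of fibroblasts, 7.57% of OLs and 2.92% of astrocytes.

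The levels of most tested collagen genes differed between fibroblasts with and without *Adamtsl3*. Of 10670 genes tested, 31 were collagen genes, of which 8 were called higher and 18 lower with *Adamtsl3*, where 10.7% of all genes were called higher and 12.3% lower. Their median log2 difference was −0.85, beside 0.00096 over all genes. All 6 chains of collagen IV were lower (median −2.24) and both tested network chains were higher (median 1.60). Of 9 tested fibrillar chains 4 were lower and 0 higher, both multiplexins were lower, and the chains of collagen VI were split, with 2 higher and 1 lower. The 31 tested here include *Col4a4*, *Col9a2* and *Col22a1* but not *Col9a1*, *Col9a3* and *Col20a1*. A gene can pass the filter on low counts through the group where it is high, so the filter has a part in these counts. With DESeq2, 37 collagen genes were tested, of which 8 were higher and 18 lower (7.24% and 7.94% of all genes). Without the filter, 8 of 44 were higher and 19 lower (6.01% and 8.07%).

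*Col25a1* had the largest difference, at 838, 1160.2 and 1510.1 CPM (lowest, median and highest library) with *Adamtsl3* and 66.3, 99.2 and 178 without, so the groups were far apart (log2 3.61 ± 0.09, adjusted p = 1.12e-20, edgeR). *Col8a2*, a network chain, was at 69.5, 82.5 and 107 CPM with and 17.7, 22.0 and 28.3 without (log2 1.98 ± 0.12). *Col12a1* was at 214, 278 and 363 CPM with and 82.2, 99.7 and 124 without (log2 1.51 ± 0.09). The ranges of these 3 genes did not overlap between the groups. The genes named in this split were picked for large differences, so ranges that lie apart go with that choice. The share of all tested genes that separate in this way is not given here.

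*Col6a2* was at 150.2, 238 and 299.9 CPM with *Adamtsl3* and 91.9, 114 and 135 without (log2 1.10 ± 0.08). Its neighbour *Col6a1* was at 199, 281 and 348 CPM with and 104, 155 and 205 without (log2 0.88 ± 0.07). *Col14a1*, a fibril-associated chain, was at 11.0, 18.5 and 53.3 CPM with and 0, 5.34 and 12.5 without (log2 2.25 ± 0.31). These 3 genes were higher in 8 of 8 libraries.

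*Col8a1* was at 244, 441 and 647 CPM with *Adamtsl3* and 122, 161 and 342 without (log2 1.22 ± 0.17), and was higher in 7 of 8 libraries. *Col23a1*, a transmembrane chain, was at 81.9, 111 and 219 CPM with and 41.0, 80.3 and 108 without (log2 0.67 ± 0.14, 7 of 8 libraries). Its difference fell below the limit of 0.5 without cKO 11 (log2 0.50) and in the control libraries alone (log2 0.41, adjusted p = 0.0614, edgeR).

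Among the genes lower with *Adamtsl3*, *Col4a6* had the largest difference, and *Col4a5*, its partner on the X chromosome whose upstream sequence is also given above, was lower too. *Col4a6* was at 15, 39.9 and 59.2 CPM with and 228, 270.2 and 389 without (log2 −2.77 ± 0.14, adjusted p = 2.4e-14, edgeR). *Col4a5* was at 44, 59.0 and 74.7 CPM with and 270.3, 307 and 392 without (log2 −2.29 ± 0.11, adjusted p = 3.01e-15). *Col18a1* was at 10.5, 16.7 and 29.9 CPM with and 66.9, 96.0 and 133 without (log2 −2.35 ± 0.14). In all 3 the highest library with *Adamtsl3* lay below the lowest without it.

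*Col13a1* was at 2.10, 11.7 and 23.2 CPM with *Adamtsl3* and 48.2, 60.3 and 87.5 without (log2 −2.19 ± 0.18). *Col26a1* was at 6.31, 12.9 and 23.4 CPM with and 37.4, 60.4 and 108 without (log2 −2.13 ± 0.16). *Col15a1*, the other multiplexin, was at 1.95, 11.4 and 15 CPM with and 38.6, 41.3 and 50.1 without (log2 −2.05 ± 0.21). The 2 groups did not overlap for these genes either.

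The remaining genes among the 10 largest falls were at low levels. *Col4a3* was at 1.10, 4.72 and 17.4 CPM with and 12.1, 38.6 and 57.0 without (log2 −2.37 ± 0.29), *Col4a4* at 2.58, 4.99 and 10.5 with and 16.9, 29.5 and 42.8 without (log2 −2.19 ± 0.26), *Col22a1* at 0, 5.12 and 14.2 with and 11.1, 20.6 and 53.4 without (log2 −2.09 ± 0.28), and *Col9a2* at 2.10, 5.78 and 14.6 with and 9.0, 27.4 and 47.6 without (log2 −1.75 ± 0.20). Each was lower in 8 of 8 libraries, and the ranges overlapped for 3 of the 4. The other genes called lower ranged from *Col5a1* (−1.49 ± 0.12) to *Col16a1* (−0.72 ± 0.13), with *Col6a3* (−1.36 ± 0.12) and *Col1a1* (−0.98 ± 0.08) between them.

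The chains of collagen I differed from each other in this split. *Col1a1* was at 111, 168 and 259.9 CPM with *Adamtsl3* and 282, 317 and 490.5 without, with no overlap. *Col1a2* was at 238, 303 and 367 CPM with and 343, 392 and 449 without, and its log2 difference of −0.29 ± 0.07 (adjusted p = 0.00295, edgeR) was below the size limit of 0.5. *Col5a2* (−0.30 ± 0.08) was below that limit too, and *Col11a1*, *Col11a2* and *Col27a1* did not pass the test.

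**Figure D2:**
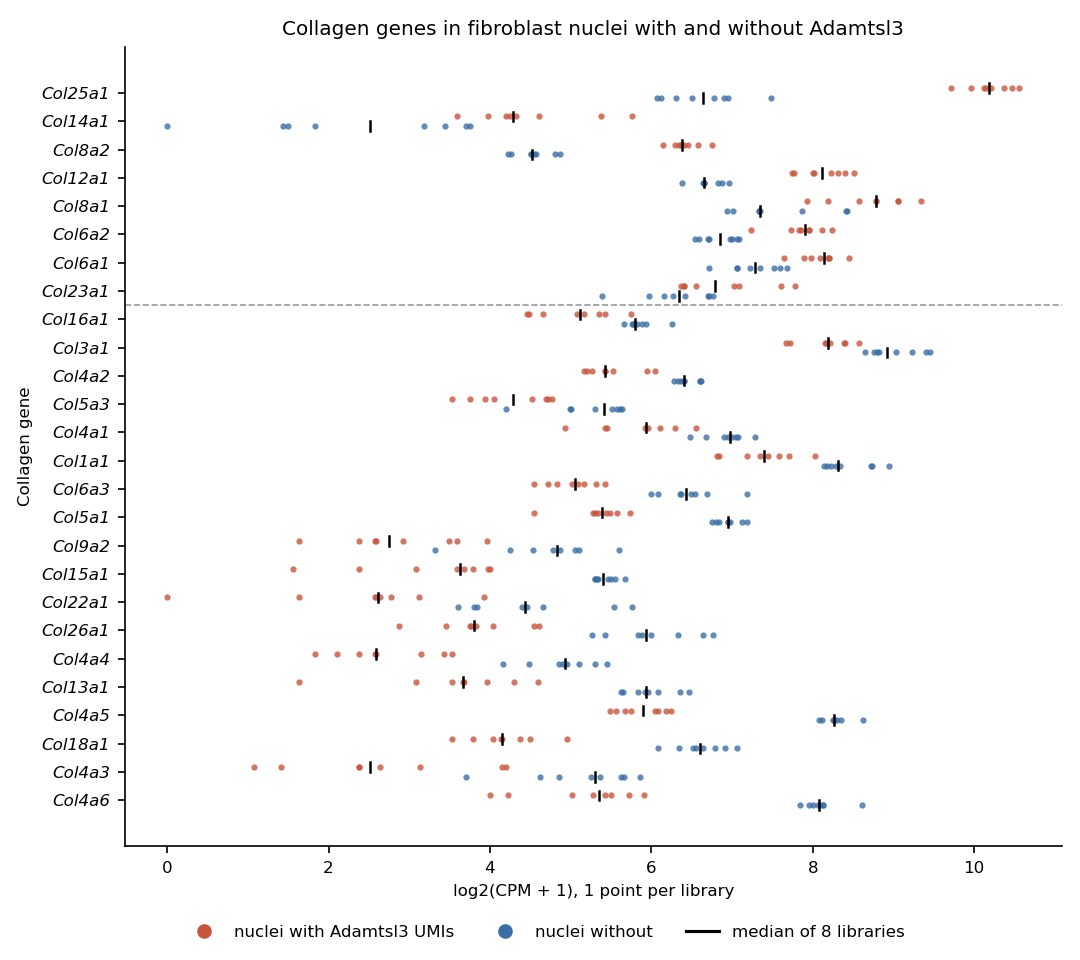
Level, as log2(CPM + 1), of the 26 collagen genes called different between fibroblast nuclei with and without an *Adamtsl3* UMI, with 1 point per library and group for 8 libraries, a black bar for the median and a dashed line between genes called higher and lower. The points of *Col25a1* with *Adamtsl3* lie between 838 and 1510.1 CPM, above all points without it, and the points of *Col4a5* and *Col4a6* with *Adamtsl3* lie below all points without it.

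Other markers moved with the split. The summed level of the fibroblast marker list, of which *Adamtsl3* is a member, was 10604 to 14355 CPM with and 20229 to 28857 without, and 3 of its 10 genes were higher with *Adamtsl3*. The astrocyte list was at 1149 to 1430 CPM with and 715 to 901 without (1 of 5 genes higher), the mural list at 80.3 to 171 with and 224 to 430.5 without (0 of 7 higher), and the OPC list at 123 to 187 with and 264 to 368 without (1 of 5 higher). The T cell list was at 4.20 to 29.6 CPM with and 75.6 to 177 without (1 of 6 higher). The endothelial list, at 107 to 269 CPM with and 237 to 361 without (4 of 6 higher), and the list of retina and pigment cells, at 16.7 to 59.8 with and 7.29 to 28.7 without (5 of 6 higher), overlapped between the groups. None of the genes of these lists was at 0, and their part in the result was not tested.

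With nuclei thinned to 1000 UMIs, 19 collagen genes were tested, of which 7 were called higher and 10 lower (13.7% and 15.4% of all genes). When sub-clusters of fibroblasts with high *Adamtsl3* took the place of the split by a UMI, a choice made after seeing the data, 7 of 26 genes tested were higher and 16 lower (12% and 14.5% of all genes). Of the genes that make, process, bind and degrade collagen, 38 were tested, of which 6 were higher and 13 lower with *Adamtsl3* (10.7% and 12.3% of all genes, median −0.17 beside 0.00096). *Tll1* (5.81 ± 0.20) and *Mrc2* (1.17 ± 0.07) were higher, while *Itga1*, a subunit of a collagen receptor (−2.19 ± 0.14), *Loxl2*, which cross-links collagen IV (−2.12 ± 0.24), and *P3h2*, a prolyl 3-hydroxylase (−1.91 ± 0.18), were lower.

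The genotypes were compared within each cell type, which asks whether collagen expression differed with the labelled genotype. No collagen gene was called in any of the 11 types by edgeR. Members tested numbered 35 in OLs, 33 in fibroblasts, 32 in astrocytes, 14 in OPCs, 7 in endothelial cells, 6 in COPs, 5 in neurons, 4 each in BAMs and microglia, 1 in mural cells and 0 in T cells. The background was as low: in OLs 0.0276% of all genes were called higher and 0.0552% lower, in OPCs 0.0129% and 0.0386%, in endothelial cells 0% and 0.117%, in microglia 0% and 0.0746%, and in every other type 0%.

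At an unadjusted p under 0.05 stood 4 of 14 collagen genes in OPCs (5.57% of all genes tested there), 3 of 35 in OLs (8.96%), 3 of 32 in astrocytes (7.51%) and 0 of 33 in fibroblasts (5.01%). In the types with 7 or fewer collagen genes tested there was 1 each in endothelial cells (9.09% of all genes), microglia (5.45%), mural cells (4.35%) and neurons (4.53%), and 0 in BAMs (4.88%) and COPs (4.01%). DESeq2 called 1, in OLs, where it called 0.0964% of all genes higher and 0.193% lower. The median log2 difference of the collagen genes was 0.02 in fibroblasts, 0.02 in OLs and −0.0042 in astrocytes, beside 0.0012, 0.01 and 0.01 over all genes. No gene of the list of 52 was called in OLs, OPCs, astrocytes or fibroblasts.

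**Figure D3:**
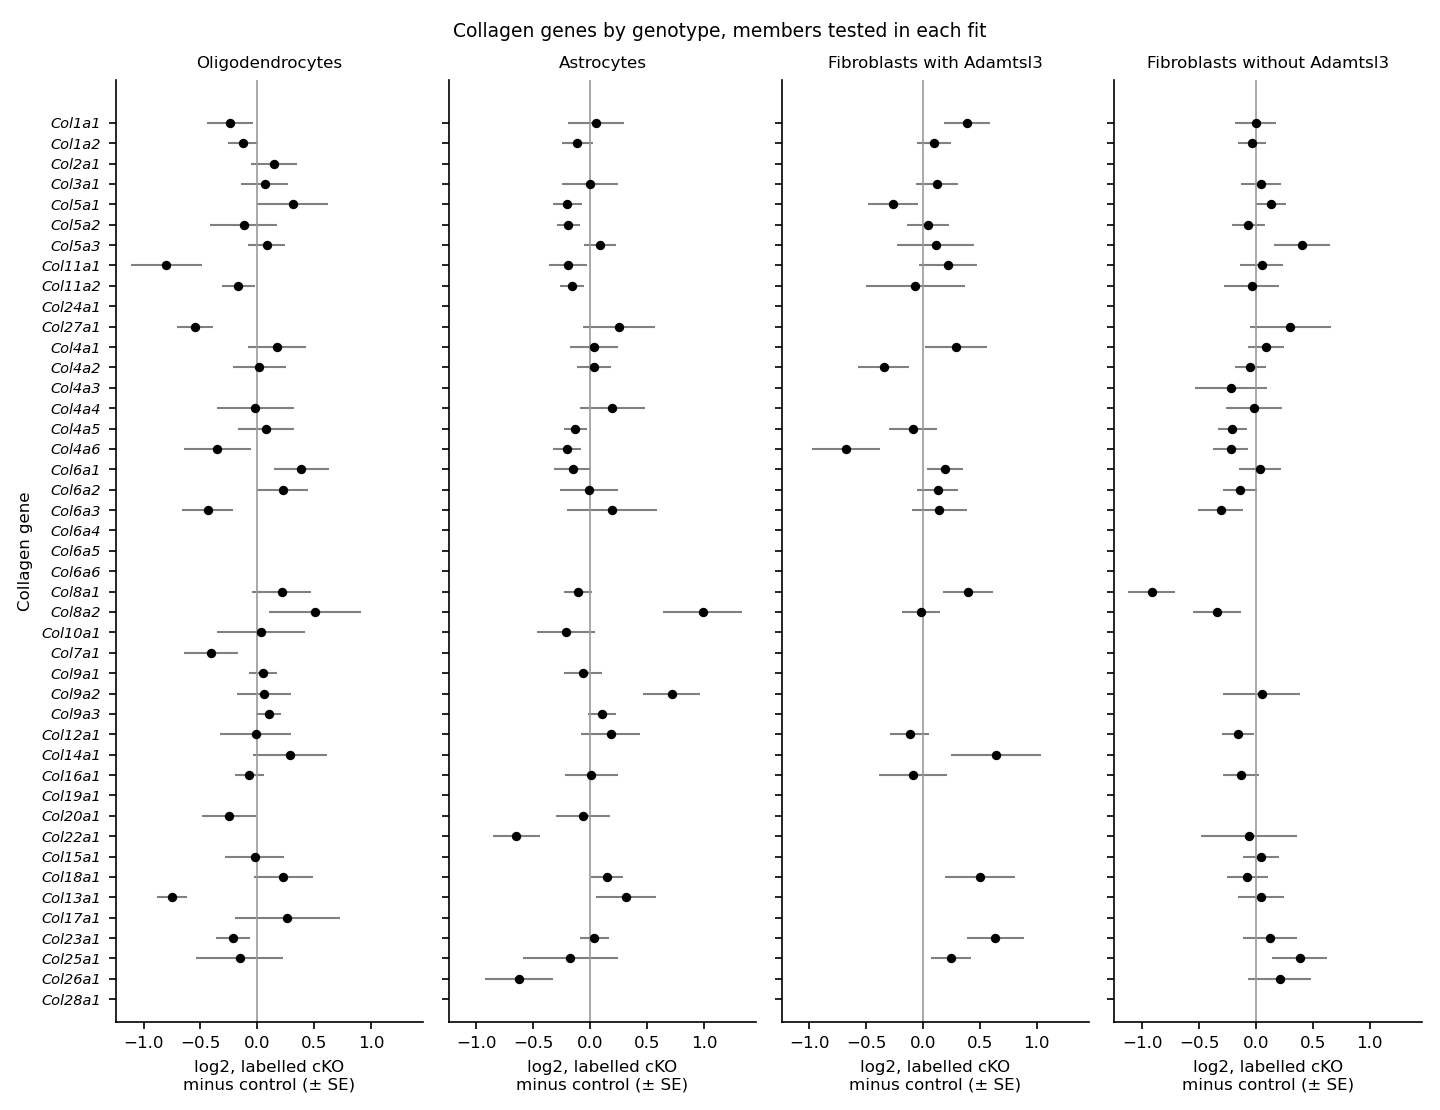
Log2 difference (libraries labelled cKO minus control) of each tested collagen gene in OLs, astrocytes, and fibroblasts with and without *Adamtsl3*, with bars of 1 SE from the edgeR fit. Most points lie near 0, *Col13a1* in OLs is at −0.75, and *Col8a1* in fibroblasts without *Adamtsl3* is at −0.92.

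The gene with the smallest p in OLs was *Col13a1*. It was at 28.7, 25.4, 30.3 and 27.1 CPM in control libraries 1 to 4 but 17.0, 15.5, 20.1 and 14.5 CPM in replicates 10 to 13, with no overlap (log2 −0.75 ± 0.13, adjusted p = 0.0648, edgeR). It missed the threshold there and passed it with DESeq2 (adjusted p = 0.000933), without a filter on low counts (0.00893), without cKO 12 (0.0413) and with nuclei thinned to 1000 UMIs (0.0411), and over all settings tried its adjusted p ran from 0.000933 to 0.346. Over 16 OL clusters the pooled level was lower in the libraries labelled cKO in 13, higher in 2 and equal in 1. These clusters share the same libraries and are not repeats. The equal cluster held 0 UMIs of the gene, and another was 98.9% control nuclei with 0 CPM in the libraries labelled cKO. *Col27a1* in OLs was at −0.55 ± 0.16 (adjusted p = 0.373) and *Col11a1* at −0.80 ± 0.31 (adjusted p = 0.502). Genes named in the genotype comparisons, here and below, were picked for their small p, so ranges that lie apart go with that choice. How many of all tested genes separate in this way between genotypes is not given here.

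In OPCs the smallest p belonged to *Col27a1*, at 59.3, 63.1, 33.4 and 60.5 CPM in the control libraries and 140.0, 83.9, 131 and 109.5 CPM in the libraries labelled cKO. All 4 values of the second group were above those of the first (log2 1.07 ± 0.23, adjusted p = 0.153 with edgeR and 0.0891 with DESeq2). Without a filter on low counts it was called, and over all settings its adjusted p ran from 0.00256 to 0.528. In microglia the same gene was at 312, 263, 294 and 251 CPM in control and 206, 171, 191 and 275 CPM in the libraries labelled cKO, with overlap (log2 −0.41 ± 0.18, adjusted p = 0.902).

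The genes with the smallest p in the other types were further from the threshold. In endothelial cells *Col4a1* was at 190, 221, 118 and 179.65 CPM in control and 258, 191, 358 and 234 CPM in the libraries labelled cKO (log2 0.58 ± 0.25, adjusted p = 0.504). In astrocytes *Col22a1* was at −0.65 ± 0.21 (adjusted p = 0.582) and in fibroblasts *Col14a1* at 0.68 ± 0.35 (adjusted p = 0.982). In BAMs *Col1a2* was at −0.22 ± 0.35, in COPs *Col20a1* at 0.51 ± 0.40, in mural cells *Col1a2* at −2.44 ± 0.76 and in neurons *Col1a2* at 1.18 ± 0.47, with adjusted p between 0.955 and 0.999. In mural cells *Col1a2* was called without control 2 (log2 −3.06, adjusted p = 0.00699, edgeR), a fit whose control arm was 1 library, control 3, assumed to vary like the others.

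Within fibroblasts the genotypes were also compared separately by *Adamtsl3*. No collagen gene was called by edgeR in either group (23 tested with and 30 without, background 0% in each direction). DESeq2, which tested 36 with and 37 without, called none either. Its background was 0% in each direction with *Adamtsl3*, and 0% higher and 0.00587% lower without. At an unadjusted p under 0.05 stood 2 of 23 with *Adamtsl3*, beside 6.02% of all genes, and 1 of 30 without, beside 4.87%. In fibroblasts with *Adamtsl3* the smallest p was that of *Col23a1* (0.63 ± 0.25, adjusted p = 0.740). In fibroblasts without *Adamtsl3* it was that of *Col8a1*, at 342, 339, 161 and 232 CPM in the control libraries and 160.2, 122, 128 and 161 CPM in replicates 10 to 13. The lowest control library and the highest of the others were nearly equal (log2 −0.92 ± 0.20, adjusted p = 0.611). Without a filter on low counts *Col8a1* was called there, and over all settings its adjusted p ran from 2.61e-05 to 1.00.

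The difference between the 2 genotype effects was tested as an interaction, over 11662 genes of which 32 were collagen genes. Only *Col8a1* was called among them, with a higher effect in fibroblasts with *Adamtsl3* (log2 difference of effects 1.29 ± 0.20, adjusted p = 0.00700, edgeR), where 0.00857% of all genes were called in each direction. In fibroblasts with *Adamtsl3* it was at 532, 292, 244 and 442 CPM in the control libraries and 441, 647, 380 and 531 CPM in the libraries labelled cKO, which overlapped. The call was lost without cKO 13 (log2 1.32, adjusted p = 0.0659) and with sub-clusters in place of the UMI split (log2 1.21, adjusted p = 0.0531), and held with DESeq2 (log2 1.3, adjusted p = 0.01). Over all settings its adjusted p ran from 9.36e-13 to 0.0659.

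*Col8a1* was uneven within fibroblasts. Nuclei without a UMI of either *Adamtsl3* or *Ranbp3l*, another fibroblast marker, had the highest pooled level (668 CPM in 678 nuclei), those with *Adamtsl3* had 424 CPM, and those with *Ranbp3l* only had 94.2 CPM (1851 nuclei). By library, nuclei with neither were above those with *Adamtsl3* in 4 of 4 control libraries but in 2 of 4 libraries labelled cKO (not in cKO 11 or cKO 13), and those with *Ranbp3l* only were lowest in 8 of 8. This grouping was chosen after values were seen. In nuclei with neither, *Col8a1* was at 868, 960.4, 642 and 874 CPM in the control libraries and 599.5, 336, 560.4 and 508 CPM in the libraries labelled cKO. In nuclei with *Ranbp3l* only it was at 151, 113, 86.2 and 126 CPM and at 79.2, 78.7, 54.2 and 89.0 CPM.

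Of the 4 fibroblast sub-clusters with high *Adamtsl3*, 4 had a higher pooled *Col8a1* level in the libraries labelled cKO, and of the other 10, 8 had a lower one. Sub-clusters share the same libraries and are not repeats. Some held few UMIs of the gene, such as sub-cluster 2 with 1 in control and 3 in the libraries labelled cKO. The shares of sub-clusters differed between libraries, with no test run on them. Sub-cluster 1, among those with high *Adamtsl3*, held 7.13% to 14.9% of fibroblasts in the control libraries and 4.95% to 7.09% in the libraries labelled cKO, and sub-cluster 2 held 5.07% to 9.19% and 10.1% to 12.6%. These 2 did not overlap between genotypes, and the other 12 of 14 did. Their part in the *Col8a1* result was not tested.

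**Figure D4:**
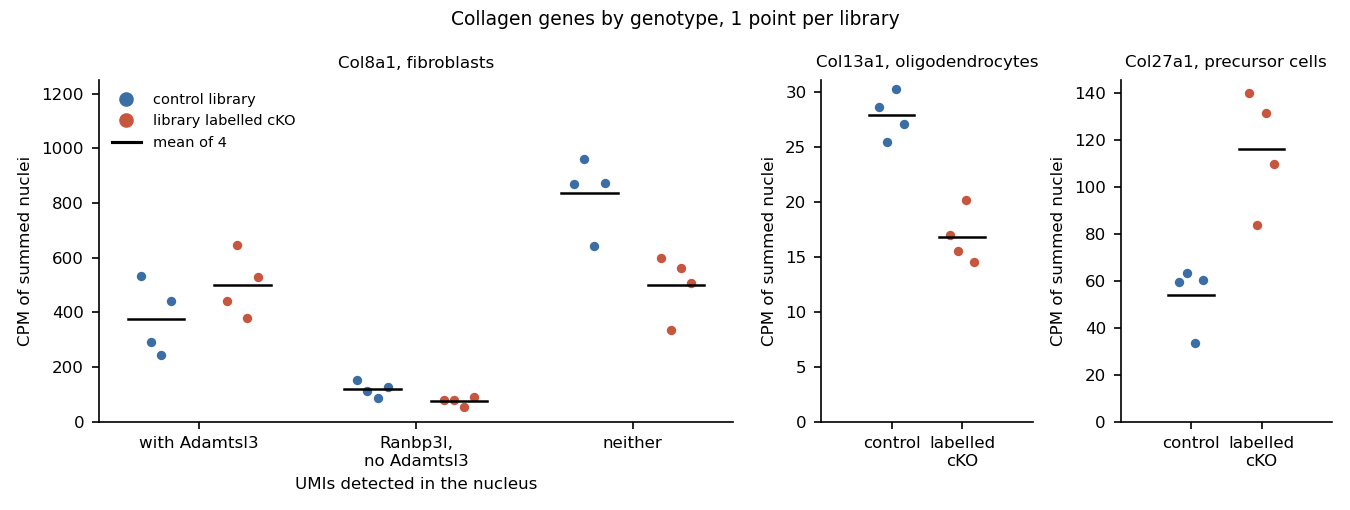
CPM per library of *Col8a1* in 3 groups of fibroblast nuclei, *Col13a1* in OLs and *Col27a1* in OPCs, for 4 control libraries and 4 libraries labelled cKO, with 1 point per library and a bar for the mean. *Col13a1* in OLs is at 25.4 to 30.3 CPM in control and 14.5 to 20.1 CPM in the libraries labelled cKO, and *Col8a1* in nuclei with *Adamtsl3* overlaps between genotypes.

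OLs of the control libraries were split by *Piezo2* in the same way, into 4361 nuclei with a UMI and 3629 without. Of 12406 genes tested, 26 were collagen genes, of which 2 were called higher and 0 lower with *Piezo2*, where 0.484% of all genes were called higher and 0.145% lower. An unadjusted p under 0.05 (edgeR) was found for 11 of the 26, beside 8.61% of all genes. The median log2 difference of the collagen genes was −0.16, beside −0.0086 over all genes. *Col23a1*, a transmembrane collagen, was at 34.8, 25.5, 24.0 and 27.1 CPM with *Piezo2* in libraries 1 to 4 and at 11.7, 12.8, 11.8 and 11.6 CPM without (log2 1.23 ± 0.17, adjusted p = 0.00764, edgeR). *Col13a1*, also transmembrane, was at 35.2, 33.0, 38.7 and 32.8 CPM with and 18.1, 13.3, 17.7 and 13.2 CPM without (log2 1.16 ± 0.16, adjusted p = 0.00764).

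For both genes every library with *Piezo2* lay above every library without. Each library gave both groups, and with the library as a block the adjusted p was 1.18e-15 for *Col13a1* and 6.91e-14 for *Col23a1*, while 2 other genes were called lower (1.61% of all genes higher and 1.55% lower). Without the block both calls were lost without control 2 (adjusted p = 0.119 for each, the highest of the settings tried), control 3 or control 4, with log2 differences of 1.10 to 1.17 for *Col13a1* and 1.23 to 1.3 for *Col23a1* in these fits. Median depth was 2591 to 3368 UMIs with and 1843 to 2519 without. Thinned to 1000 UMIs, *Col13a1* was called and *Col23a1* was not (log2 1.28, adjusted p = 0.0525).

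Summed over all named nuclei of a library, in which fewer cells of a type and less RNA per cell cannot be told apart, no collagen gene was called between genotypes (40 tested by edgeR, 0 called by DESeq2), with a background of 0.0108% higher and 0.00542% lower. At an unadjusted p under 0.05 stood 4 of the 40, beside 6.97% of all genes. The smallest p was that of *Col11a1* (log2 −0.39 ± 0.14, adjusted p = 0.701).

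Empty droplets hold RNA released from broken cells, and their collagen content was measured in each library. Of the 44 genes, 35 had at least 100 UMIs there. By the log2 ratio of CPM + 1, 8 of them were higher in droplets than in the nuclei of the same library in 8 of 8 libraries and 20 were lower in 8 of 8. Of all 15633 genes with as many UMIs there, 32.1% were higher and 49.2% lower in 8 of 8 libraries. The higher genes were *Col6a2* (median log2 ratio 1.36), *Col1a2* (1.2), *Col1a1* (1.17), *Col6a1* (1.00), *Col3a1* (0.76), *Col8a2* (0.68), *Col12a1* (0.59) and *Col6a3* (0.14), which are chains of collagens I, III, VI, VIII and XII that fibroblasts led. *Col1a1* was at 121, 137 and 165 CPM in droplets (lowest, median and highest library) and at 40, 62.1 and 79.1 CPM in named nuclei.

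The genes lowest in droplets against nuclei were *Col25a1* (median log2 ratio −2.16), *Col26a1* (−2.04), *Col27a1* (−1.92) and *Col4a6* (−1.69). *Col25a1* was at 8.61, 14.4 and 36.4 CPM in droplets and 44.8, 69.1 and 153 CPM in nuclei. Fibroblasts thus held both genes that were raised in droplets and genes that were low there. Between genotypes, no collagen gene was called in droplets by edgeR (36 tested, 0 called by DESeq2), with a background of 0% higher and 0.0306% lower, and 3 of 36 had an unadjusted p under 0.05, beside 7.77% of all genes. After an ambient profile was subtracted from the sums, 26 of 31 genes tested were called higher in fibroblasts, where 28.3% of all genes were.

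**Figure D5:**
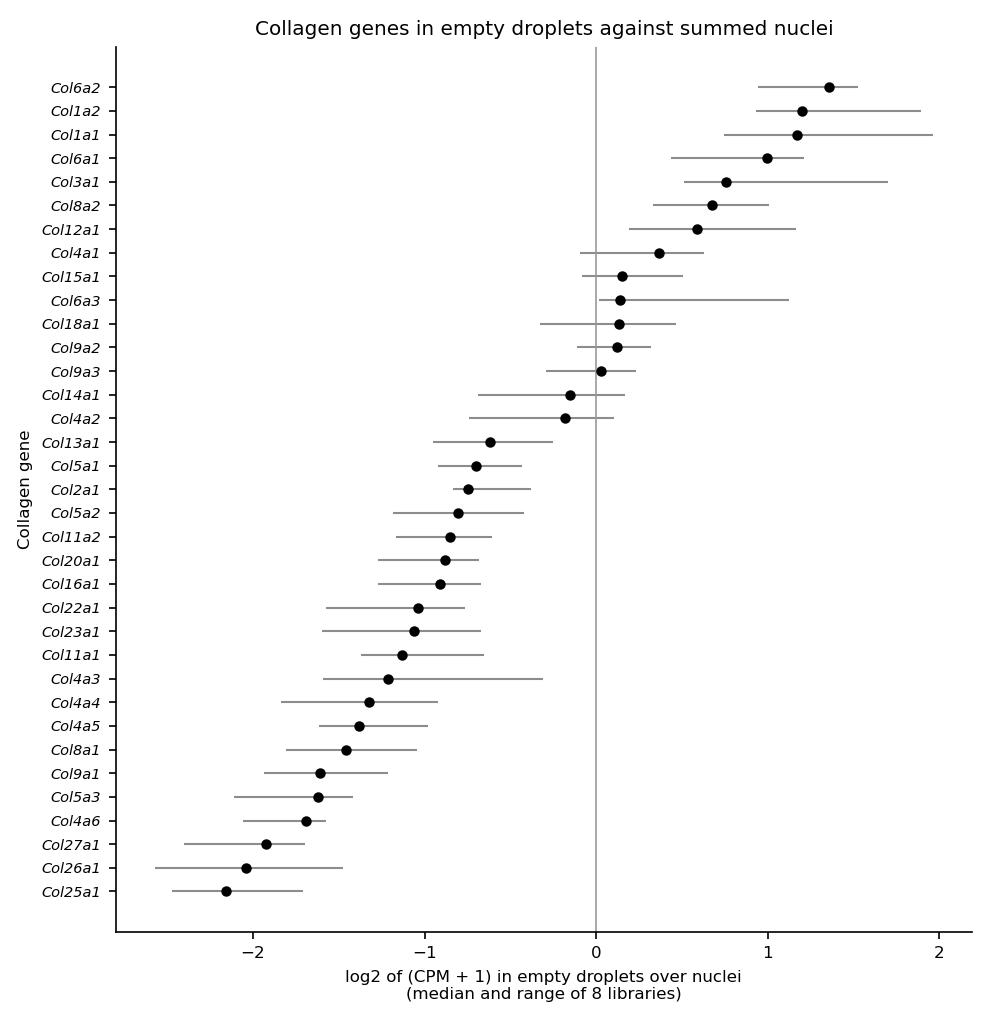
Log2 ratio of CPM + 1 in empty droplets to CPM + 1 in named nuclei of the same library, for the 35 collagen genes with at least 100 droplet UMIs, as the median over 8 libraries (point) with the lowest and highest library (line). Lines of *Col6a2*, *Col1a2* and *Col1a1* lie wholly above 0, and that of *Col25a1* lies wholly below 0.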

How the data were processed

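Single-nucleus libraries of mouse ONs were made with a droplet kit for 3′ ends. The authors counted UMIs with Cell Ranger 7.0.0 on GRCm39, per the labels, while the headers of the count files name version 4. The deposited values are raw counts per gene and barcode, with empty droplets kept. Nuclei were called as in that tool (8000 expected, at least 500 UMIs for candidates, false discovery rate 0.01) and filtered on at least 200 genes, at most 5% mitochondrial counts and median absolute deviations. Nuclei with the highest doublet scores were removed, up to a share set in advance at 0.8% per 1000 nuclei. That share was 2.87% to 5.24% of a library and is not a measured doublet rate. Clusters (3000 variable genes without collagen genes, 30 components, Leiden resolution 3 with igraph 0.11.9) were named from marker lists, and 2278 nuclei stayed unnamed. Any pair of libraries shared 1 to 11 barcodes. Median depth was 2364 to 3290 UMIs per nucleus.

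Counts were summed per library and group (at least 10 nuclei and 1000 counts) and tested with edgeR 4.0.16 (quasi-likelihood, TMM, filterByExpr) over all genes in R 4.3.3, with Benjamini-Hochberg adjustment and a size limit of 0.5 on the log2 scale. The library was a block in the cell type, *Adamtsl3* and interaction fits, and genotype or *Piezo2* was the only term elsewhere. Standard errors came from the F statistic. DESeq2 1.42.0, upper-quartile scaling, no filter, no block, thinning, subtraction of an ambient profile and leaving out each library were alternatives. The steps were tested on simulated data. The collagen genes, the list of related genes and the comparisons were chosen with earlier results of these data known. The genes named in depth are, per cell type, the 5 collagen genes called higher with the largest difference, in the *Adamtsl3* split up to 10 per direction, in each genotype comparison the called gene or that with the smallest p, and for likeness the 5 genes closest to *Col4a1*. Cellbender, scVI and DoubletDetection, which the study's methods use, were not run.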

Additional observations from a re-analysis of the deposited data

Results flagged for a closer look

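*Col27a1* in OPCs of control 3 was at 33.4 CPM, while the other 3 control libraries were at 59.3 to 63.1 CPM, a gap that was large against the range of its group. *Col11a1* summed over all named nuclei was at 25.5 CPM in cKO 10, while the other 3 libraries labelled cKO were at 17.1 to 18.2 CPM. These were the 2 groups of 4 libraries in which a single library stood apart among the 28 looked at, and chance alone gives such a gap in about 5% of groups. The genotype effect on *Col8a1* differed between fibroblasts with and without *Adamtsl3* (log2 difference 1.29, interaction test).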

How the results depend on the processing

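Of the counts of called genes recomputed under the alternatives, leaving aside those lower per cell type, 566 stayed within 1.5 times the reported count and 29 moved. Many that stayed were genotype counts, which were reported as 0 apart from the interaction and were 0 again. Several of these fits tested 7 or fewer collagen genes, so the total says less about the counts above 0. Of the recomputed counts lower per cell type, 123 stayed and 42 moved. Percentages in parentheses give the share of all genes called in the same direction in the same fit. The cell type fits tested 44 collagen genes without a filter and with DESeq2, 31 to 33 without 1 library and 31 in the other settings. Without a filter on low counts, 2 genes were higher in BAMs (11.1%), 5 in microglia (12.6%), 12 in neurons (22%) and 7 in OLs (21.2%). Between genotypes 1 was then lower in endothelial cells (0.418%), 1 in mural cells (0.0532%), 1 in OLs (0.116%) and 1 in fibroblasts without *Adamtsl3* (0.222%), and in OPCs 1 was higher (0.0657%) and 1 lower (0.221%). With DESeq2, 20 were higher in mural cells (4.1%) and 1 lower by genotype in OLs (0.193%). In the control libraries alone, 7 were higher in endothelial cells (15.7%) and 8 in mural cells (2.65%), and with the ambient profile subtracted 2 were higher in BAMs (21.5%). Thinning to 1000 UMIs gave 10 lower with *Adamtsl3* (15.4%), 1 lower by genotype in OLs (0.0937%) and 1 higher with *Piezo2* (0.131%). Sub-clusters in place of the *Adamtsl3* split, chosen after seeing the data, gave 0 genes in the interaction (0%). With the library as a replicate block in the *Piezo2* comparison, 2 were higher (1.61%) and 2 lower (1.55%). Adding low-depth clusters, and leaving out the OL cluster mostly of control 3, both also chosen after seeing the data, moved no count by over 1.5 times. With DESeq2, 12 were lower in astrocytes (18%), 6 in BAMs (7.26%), 2 in endothelial cells (3.93%), 7 in fibroblasts (19.3%), 12 in OPCs (8.13%), 33 in OLs (34.6%) and 1 in T cells (1.45%). In the control libraries alone, 0 were lower in BAMs (3.34%), 1 in COPs (1.84%), 9 in microglia (15.3%), 1 in OPCs (3.23%) and 0 in T cells (3.09%), and with the ambient profile subtracted 0 in BAMs (6.28%), 2 in COPs (7.92%), 1 in endothelial cells (5.05%) and 1 in T cells (6.25%). Without a filter 3 were lower in endothelial cells (2.45%) and 5 in T cells (2.71%), and with upper-quartile scaling 1 (6%) and 1 (2.92%), and 1 was lower in endothelial cells with no block (4.53%). The cause of these moves was not tested.

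Leaving out 1 library at a time gave 1 to 2 genes higher in BAMs (17.2% to 19.1%), 8 to 12 in endothelial cells (16.9% to 20.2%), 8 to 14 in mural cells (2.91% to 3.86%, with 8 without control 3), 25 to 28 in fibroblasts (22.5% to 26.2%) and 14 to 16 in astrocytes (26.1% to 29.2%). It gave 0 to 3 lower in BAMs (5.29% to 6.92%), 3 to 6 in COPs (6.89% to 10.1%), 0 to 3 in endothelial cells (3.98% to 6.67%), 5 to 11 in neurons (11.2% to 15.7%, with 5 without control 3), 3 to 8 in OPCs (5.95% to 7.61%, with 3 without cKO 13) and 1 to 3 in T cells (3.58% to 5.11%). It gave 7 to 8 higher (10.2% to 10.9%) and 17 to 19 lower (11.9% to 12.6%) with *Adamtsl3*. Between genotypes it gave 0 to 2 lower in mural cells (0% to 1.3%, with 2 without control 2, when control 3 alone was the control arm) and 0 to 1 in OLs (0.041% to 0.082%, with 1 without cKO 12). It gave 0 to 1 in the interaction (0% to 0.0342% higher, with 0 without cKO 13) and 0 to 2 higher with *Piezo2* (0.00805% to 0.161%, with 0 without control 2, 3 or 4). *Col1a2* in BAMs, at −0.22 between genotypes, ran from −0.36 without cKO 11 to 0.18 without control 4, with none of these values past the test. No paired analysis was possible for the genotypes because they share no replicate numbers. The number of nuclei limits mural cells (91), COPs (124) and T cells (128) most.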
